A study of Mus musculus with 5 samples.

Results

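The genes described here are the heat shock proteins and chaperones of the mouse: every gene whose symbol begins as a numbered Hspa, Hspb, Hsf, Dnaja, Dnajb, Dnajc, Bag or Cct gene, or as Hsp90, and Hspd1, Hspe1 and Hsph1. The rule found 93 of the 24417 named genes in the count table, of which 91 had at least 1 count and 81 had enough counts to be tested, among 14164 tested genes in all. RNA was sequenced from T cells of the colon lamina propria, the connective tissue beneath the gut epithelium, in 5 libraries. All mice carried the Foxp3DTR-GFP allele together with the loxp-Thy1.1-STOP-loxp-GFP allele, so both groups share both. The Treg group holds 2 libraries of Foxp3-DTR-GFP+ cells, which make the regulatory T cell factor Foxp3. The reporter-null group holds 3 libraries of Thy1.1+ cells, in which the Foxp3 locus is switched on but a stop signal stands before its product. The labels give no treatment or age for either group, and they do not say whether libraries came from separate or pooled animals, so p-values measure the spread between libraries, which may be technical. Each description also carries a number: Treg replicate 1 and reporter-null replicate 2 are numbered 2, Treg replicate 2 and reporter-null replicate 3 are numbered 3, and reporter-null replicate 1 carries 1 and 4. What the number stands for is not given in the sources used here. The members were compared between the groups, and between the 2 libraries numbered 2 and the other 3.

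Chaperones help proteins fold, keep damaged proteins from clumping and hand them on for repair or breakdown. HSP70 proteins bind exposed stretches of a client in a cycle driven by ATP, J proteins (the Dnaja, Dnajb and Dnajc genes) bring clients and start that cycle, and HSP110 and BAG proteins end it by releasing the nucleotide. HSP90 finishes the folding of kinases and receptors, the CCT ring folds actin and tubulin, HSP60 with HSP10 folds proteins inside mitochondria, and small heat shock proteins hold unfolded chains. The cytosolic stress-inducible genes are switched on by the transcription factor HSF1, which binds heat shock elements, inverted repeats of the letters GAA. Chaperones of the endoplasmic reticulum answer to another pathway, the unfolded protein response. In cells taken from solid tissue, heat shock and early-response genes are known to be induced by warm enzymatic digestion.

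The bases before the start sites of 6 genes that were lower in the libraries numbered 2 are shown. They were picked because they hold a short motif, 2 inverted units of GAA, of the element that HSF1 is known to bind. Dnaja1 and Dnajb4 were also lower and hold a match but are not shown. Hspa1l, Dnajb1 and Bag3 were lower and hold no match. The same stretch of the endoplasmic reticulum chaperone Hspa5 is shown for contrast. Each is RefSeq sequence of build GRCm38.p6, 5′ to 3′ on the gene's strand, with the 250 bases before the annotated start. The exception is the stretch between Hspd1 and Hspe1, which are read outward from it in opposite directions and which is given on the plus strand. Capitals mark GAANNTTC or TTCNNGAA, where N is any base. Each of these motifs is its own reverse complement, so both strands were searched, and overlapping matches were counted.
Hspa1a, chr17:34972157-34972406, minus strand: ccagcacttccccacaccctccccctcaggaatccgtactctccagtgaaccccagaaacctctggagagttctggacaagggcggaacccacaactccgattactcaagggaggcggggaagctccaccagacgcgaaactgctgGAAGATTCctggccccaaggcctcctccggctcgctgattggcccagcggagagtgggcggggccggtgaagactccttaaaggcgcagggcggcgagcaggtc
Hspa1b, chr17:34959239-34959488, minus strand: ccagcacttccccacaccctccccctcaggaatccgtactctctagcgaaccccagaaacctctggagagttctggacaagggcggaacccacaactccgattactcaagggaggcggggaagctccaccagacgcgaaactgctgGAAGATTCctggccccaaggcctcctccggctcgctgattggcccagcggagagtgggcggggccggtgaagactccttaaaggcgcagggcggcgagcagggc
Hspb1, chr5:135887669-135887918, plus strand: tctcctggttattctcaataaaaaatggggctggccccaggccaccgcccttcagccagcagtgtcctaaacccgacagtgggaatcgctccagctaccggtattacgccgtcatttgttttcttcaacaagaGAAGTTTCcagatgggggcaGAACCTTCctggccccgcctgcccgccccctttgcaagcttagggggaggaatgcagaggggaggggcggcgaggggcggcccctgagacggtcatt
Hsph1, chr5:149636316-149636565, minus strand: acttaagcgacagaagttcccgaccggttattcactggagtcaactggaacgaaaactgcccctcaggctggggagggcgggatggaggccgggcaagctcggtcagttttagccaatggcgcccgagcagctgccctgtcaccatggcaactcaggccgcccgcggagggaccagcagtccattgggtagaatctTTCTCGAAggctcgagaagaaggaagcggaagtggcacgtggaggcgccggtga
Between Hspd1 and Hspe1, chr1:55087933-55088147, plus strand: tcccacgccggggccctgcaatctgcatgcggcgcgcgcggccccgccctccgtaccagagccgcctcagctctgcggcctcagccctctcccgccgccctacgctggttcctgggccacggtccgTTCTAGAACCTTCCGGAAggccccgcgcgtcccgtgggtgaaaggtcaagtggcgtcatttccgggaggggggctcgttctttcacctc
Hspa5, chr2:34771840-34772089, plus strand: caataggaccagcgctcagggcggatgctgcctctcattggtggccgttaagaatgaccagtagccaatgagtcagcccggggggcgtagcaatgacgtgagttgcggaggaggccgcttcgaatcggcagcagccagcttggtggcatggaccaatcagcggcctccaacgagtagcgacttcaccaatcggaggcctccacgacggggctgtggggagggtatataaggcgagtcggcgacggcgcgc
The Hspa1a and Hspa1b stretches differ at 3 of 250 positions, and the motif lies 96 bases before the start in both. Hspb1 holds 2 matches, Hsph1 holds 1 and Hspa5 holds 0. The 215 bases shared by Hspd1 and Hspe1 hold 3 overlapping matches, which also form 2 matches of a longer motif. That motif is GAA, TTC and GAA, or its reverse complement TTC, GAA and TTC, with NN between the units.

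Total counts per library ran from 17670420 to 22395169. Foxp3 followed the labels, at 764 and 770.0 CPM (each gene's reads scaled to a common library size) in the Treg libraries and 75.7 to 81.3 in the reporter-null libraries. T cell markers were high in all 5 libraries, with a summed level of 6053 to 7050 CPM over 7 genes. The libraries numbered 2 stood apart in transcripts of other cells. The summed level of 9 epithelial markers was 236 CPM in Treg replicate 1 and 1028 CPM in reporter-null replicate 2, against 35.1 to 49.1 CPM in the other 3 libraries. CPM is not scaled by gene length, so levels are compared between libraries and not between genes. In bulk libraries, fewer cells of a type and less RNA per cell cannot be told apart.

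Chaperone transcripts took 1.49% of all counts in Treg replicate 1 and 1.74% in reporter-null replicate 2, against 5.06% in Treg replicate 2 and 4.77% and 4.26% in reporter-null replicates 1 and 3. Hspa1a and Hspa1b made up most of this gap, with 0.396% and 0.568% of counts in the libraries numbered 2 and 2.67% to 3.19% in the others. With the group as a term, 14 of the 81 tested members were lower in the libraries numbered 2 (17.3%) and 0 were higher, at an adjusted p under 0.05 in edgeR's quasi-likelihood test. Of all 14164 genes tested, 3.43% were called, 0.621% lower and 2.81% higher. The libraries of each of the 14 genes did not overlap between the numbers. Over all 81 tested members, 23 were lower in both libraries numbered 2 than in any other library (28.4%), against 10.4% of all genes, and 3 were higher in both (Dnajc17, Dnajc21 and Hspa9), against 11.6%. The median log2 difference of the 81 members was -0.06, near the -0.02 of all genes, so the drop was in a subset of members.

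**Figure D1:**
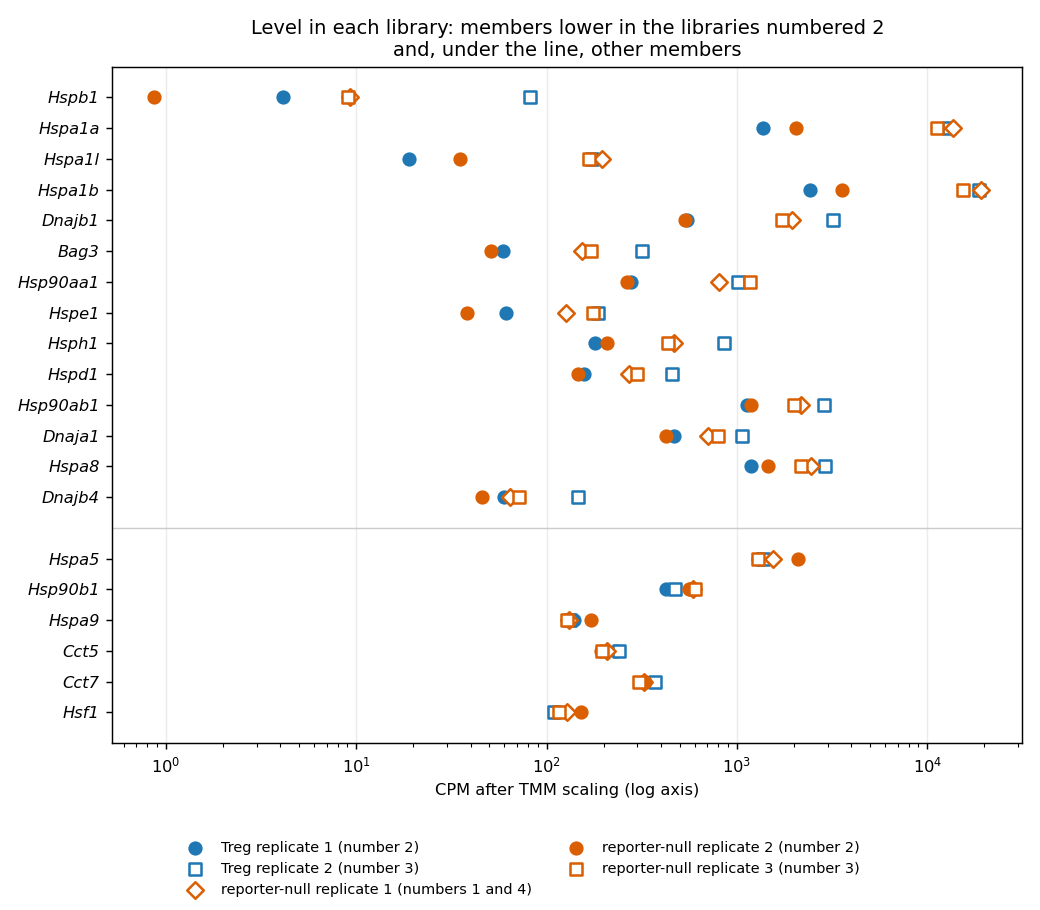
Levels of the 14 members that were lower in the libraries numbered 2, in each of the 5 libraries, in CPM on a log axis; each point is a library. For every gene the points of Treg replicate 1 and reporter-null replicate 2 lie below those of the other 3 libraries, as for Hspa1a at 1371 and 2047 CPM against 11238 to 13659.7 CPM.

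That subset was mainly stress-inducible cytosolic genes and the mitochondrial HSP60 and HSP10, with the constitutive Hspa8 and Hsp90ab1 also among them. A list of 13 members taken as stress-inducible, which includes the constitutive Hspa8, had 12 lower in the libraries numbered 2. Its median log2 difference was -1.82. The remaining gene of that list, the HSP110 relative Hspa4l, had a log2 difference of -0.52 (adjusted p = 0.132, edgeR). The 2 lower genes outside the list were the testis-type Hspa1l and the constitutive Hsp90ab1. Over the 68 tested members outside the list the median was -0.03. The summed level of the 13 genes was 6829 CPM in Treg replicate 1 and 8841 CPM in reporter-null replicate 2, against 42117 CPM in Treg replicate 2, 39940.3 CPM in reporter-null replicate 1 and 33753 CPM in reporter-null replicate 3. This list was written with earlier results of these data known, so its count describes these libraries and is not separate evidence.

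**Figure D2:**
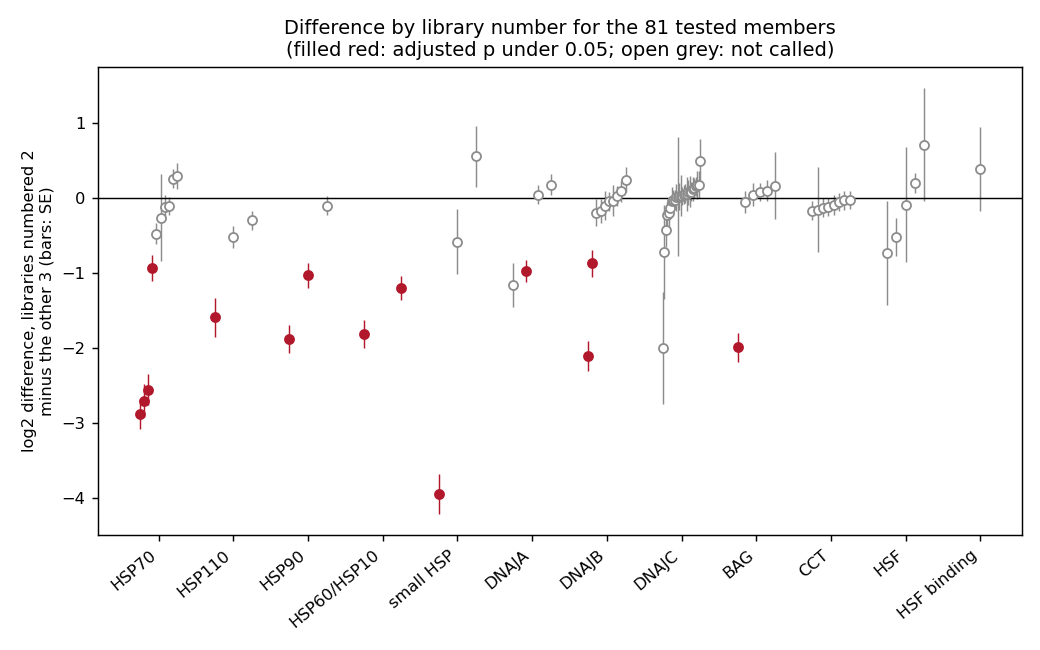
Log2 difference between the libraries numbered 2 and the other 3, with the group as a term, for the 81 tested members by class; each point is a gene and filled points passed an adjusted p of 0.05. The filled points are all below 0 and lie in the HSP70, HSP110, HSP90, HSP60/HSP10, small HSP, DNAJA, DNAJB and BAG classes, while the CCT, DNAJC and HSF classes have none.

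Among the HSP70 genes, the inducible Hspa1a stood at 1371 CPM in Treg replicate 1 and 13095 CPM in Treg replicate 2. In the reporter-null libraries it stood at 13659.7, 2047 and 11238 CPM in replicates 1, 2 and 3. Both libraries numbered 2 were far below the others, in each group alike, and the fitted log2 difference was -2.88 (SE 0.201, adjusted p = 0.000107, edgeR), a level 7.35-fold higher in the other libraries. Its near-identical neighbour Hspa1b stood at 2423 and 18692 CPM in Treg and at 19197, 3581 and 15418 CPM in reporter-null libraries, a log2 difference of -2.56 (SE 0.204, adjusted p = 0.000245). Of all stretches of 50 bases, the read length in the labels, 58.8% of those in Hspa1a also occur in Hspa1b and 62.3% of those in Hspa1b occur in Hspa1a, so how reads were split between them is uncertain. Hspa1l, the testis-type HSP70 gene next to them, stood at 19.0 and 173.9 CPM in Treg and 195, 35.2 and 166.6 CPM in reporter-null libraries. Its log2 difference was -2.70 (SE 0.215, adjusted p = 0.000395, edgeR). In Hspa1l, 9.57% of stretches occur in Hspa1a, and 1778 bases of its exons overlap Gm10501 on the other strand. How many of its reads came from these genes is uncertain. The constitutive HSP70 gene Hspa8, which folds newly made proteins, moved less, from 2912, 2464 and 2164 CPM to 1181 and 1452 CPM (log2 difference -0.94, SE 0.172, adjusted p = 0.0212).

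The HSP70 genes of other compartments did not pass the test. Hspa5, the main chaperone of the endoplasmic reticulum, stood at 1292 and 1376 CPM in Treg and at 1547, 2099 and 1294 CPM in reporter-null libraries, with a log2 difference of 0.29 (adjusted p = 0.560, edgeR). Hspa9, the mitochondrial HSP70, had a log2 difference of 0.25 (adjusted p = 0.478). Of the 10 tested HSP70 genes, 4 were thus lower and 6 were not called.

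Among the HSP110 exchange factors, Hsph1 stood at 180 and 857 CPM in Treg and at 469.6, 207 and 436.5 CPM in reporter-null libraries. Treg replicate 2 was the highest, both libraries numbered 2 were the lowest, and the log2 difference was -1.59 (SE 0.258, adjusted p = 0.0229, edgeR). Hspa4, the constitutive HSP110, had a log2 difference of -0.30 (adjusted p = 0.369). Bag3, the BAG protein that links HSP70 to small heat shock proteins and autophagy, stood at 59.0 and 319 CPM in Treg and 154, 51.1 and 170.5 CPM in reporter-null libraries. Its log2 difference was -1.99 (SE 0.193, adjusted p = 0.000823). The other 5 tested BAG genes ran from -0.06 for Bag4 to 0.16 for Bag2, and none of them was called.

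Of the HSP90 genes, the inducible cytosolic Hsp90aa1 stood at 277 and 1010.3 CPM in Treg and at 805, 264.5 and 1166 CPM in reporter-null libraries. It was lower in both libraries numbered 2, by a log2 difference of -1.88 (SE 0.184, adjusted p = 0.000785, edgeR). The constitutive cytosolic Hsp90ab1 moved less, from 2875, 2169 and 2002 CPM to 1125 and 1193 CPM (log2 difference -1.04, SE 0.161, adjusted p = 0.00878). Hsp90b1, the HSP90 of the endoplasmic reticulum, had a log2 difference of -0.11 (adjusted p = 0.801).

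The mitochondrial folding chamber was lower as well. Hspd1, its HSP60 barrel, stood at 158 and 458 CPM in Treg and at 273, 146 and 297 CPM in reporter-null libraries (log2 difference -1.21, SE 0.163, adjusted p = 0.00414, edgeR). Hspe1, its HSP10 lid, stood at 61.6 and 187 CPM in Treg and at 127, 38.0 and 176 CPM in reporter-null libraries (log2 difference -1.82, SE 0.187, adjusted p = 0.00103). These neighbours share the stretch with overlapping motifs shown above. The other 6 of 8 tested mitochondrial members, which include the import J protein Dnajc19 and the HSP70 partner Dnaja3, were not called.

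Hspb1, the small heat shock protein HSP27, showed the lowest fitted difference of the tested members. It stood at 4.13 CPM in Treg replicate 1 and 82.3 CPM in Treg replicate 2, and reporter-null replicates 1, 2 and 3 held 9.32, 0.864 and 9.03 CPM. Each library numbered 2 was the lower of its group, and the log2 difference was -3.95 (SE 0.265, adjusted p = 7.6e-05, edgeR). Treg replicate 2 held by far the highest level of the 5. The other tested small heat shock genes, Hspb6 and Hspb11, stayed under 5 CPM and had log2 differences of 0.55 (adjusted p = 0.663) and -0.59 (adjusted p = 0.662).

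Among J proteins, Dnajb1, the usual partner of inducible HSP70, stood at 545 and 3219 CPM in Treg and at 1951, 532 and 1735 CPM in reporter-null libraries. Its log2 difference was -2.11 (SE 0.199, adjusted p = 0.000689, edgeR). Dnaja1, which works with Hspa8, went from 1069.9, 708 and 801 CPM to 466 and 426 CPM (log2 difference -0.98, SE 0.148, adjusted p = 0.00722); 608 bases of its exons overlap Smu1 on the other strand, and the authors' strand setting is not given in the sources used here. Dnajb4 went from 145.6, 64.1 and 71.3 CPM to 59.5 and 45.7 CPM (log2 difference -0.87, SE 0.179, adjusted p = 0.0355). Dnaja4 stood at 93.2 and 352 CPM in Treg and 180.1, 110.3 and 161 CPM in reporter-null libraries and did not pass (log2 difference -1.16, SE 0.292, adjusted p = 0.130). Treg replicate 1 and reporter-null replicate 2 were the lowest of the 5 libraries for it too. Its exons overlap Wdr61 on the other strand over 1581 bases.

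The 26 tested DNAJC genes, a mixed class of J proteins with roles from splicing to vesicle uncoating, held 0 calls in edgeR. The summed level of all 28 DNAJC members, tested or not, ran from 1447 to 1485 CPM over the 5 libraries. Dnajc6, which helps HSP70 strip clathrin from vesicles, had the lowest log2 difference among them, at -2.01 (SE 0.746, adjusted p = 0.341). It stood at 2.44 and 3.61 CPM in Treg and at 12.8, 2.45 and 28.7 CPM in reporter-null libraries, so its gap lay within the reporter-null group.

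The 8 tested subunits of the CCT ring were nearly level. Their log2 differences ran from -0.17 for Cct8 to -0.03 for Cct3, with a median of -0.11 and 0 calls. The summed level of all 9 Cct members was 1445 CPM in Treg replicate 1 and 1290.5 CPM in reporter-null replicate 2, against 1364 to 1542 CPM in the other 3 libraries. The 8 tested members that reside in the endoplasmic reticulum also held 0 calls, with log2 differences from -0.14 for Dnajc1 to 0.29 for Hspa5. Hsf1, the factor that switches on the stress-inducible genes, stood at 110.4 and 109 CPM in Treg and at 128, 152 and 116 CPM in reporter-null libraries. Its transcript had a log2 difference of 0.19 (adjusted p = 0.631, edgeR). HSF1 is known to be controlled mainly as a protein, which these data do not measure. Hsf2 stood under 20 CPM in all libraries and had a log2 difference of -0.53 (adjusted p = 0.442).

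**Figure D3:**
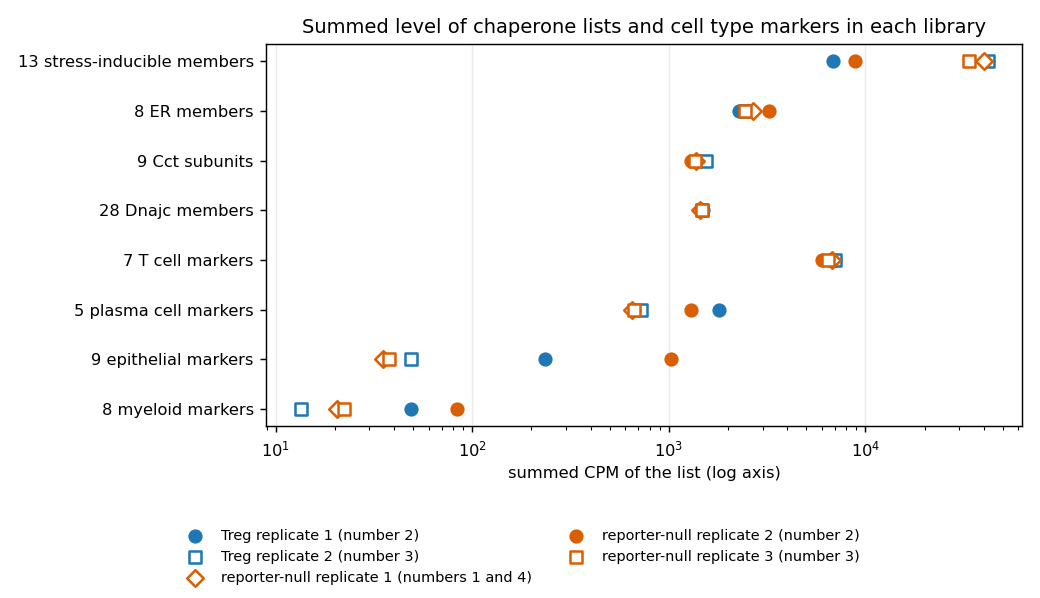
Summed level in CPM, on a log axis, of the stress-inducible, endoplasmic reticulum, CCT and DNAJC members and of marker genes of other cells in each of the 5 libraries. The stress-inducible sum is lower in the libraries numbered 2 (6829 and 8841 CPM) than in the others (33753 to 42117 CPM), while the epithelial sum is higher (236 and 1028 CPM against 35.1 to 49.1 CPM).

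The short motif shown above can be read across all members. A RefSeq entry for the bases before the start was found for 75 of the 93 members and for 11 of the 14 lower genes; Hsp90aa1, Hsp90ab1 and Hspa8 had none in the table. The short motif lay in 8 of those 11 (72.7%), in 8 of the 54 tested members that were not lower (14.8%) and in 3932 of 27025 genes in all (14.5%). Hspa1a and Hspa1b are near-copies there, and Hspd1 and Hspe1 share their stretch, so the matches of each pair are not separate. Of the 8 Cct genes with an entry, 3 held the short motif (37.5%), and the tested Cct genes had 0 calls. The longer motif lay in 2 of the 11, Hspd1 and Hspe1, and in 139 of all genes (0.514%). Dnajb6, which was not called (log2 difference -0.05), also held the longer motif. Bag3, Dnajb1 and Hspa1l held no match in this window and were lower. These are matches of letters and not measured binding.

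Among genes that work with the members but are not among them, calls lay in some lists and not in others. Of all tested genes, 0.621% were lower in the libraries numbered 2 and 2.81% were higher. Of 14 tested HSP90 cochaperones, 2 were lower in the libraries numbered 2 in edgeR: Cacybp, from 243, 141 and 156 CPM to 109 and 79.4 CPM (log2 difference -1.01, adjusted p = 0.0040), and Chordc1, from 141, 89.1 and 106 CPM to 84.2 and 66.0 CPM (log2 difference -0.64, adjusted p = 0.0418). Ahsa1, which speeds the ATP cycle of HSP90, had a log2 difference of -0.54 (adjusted p = 0.0840). Of 13 known HSF1 targets outside the members, 12 had negative differences, 2 were lower and 1 was higher, and the median was -0.36. This list shares Chordc1, Stip1, Ahsa1, Fkbp4 and Cacybp with the cochaperones, and its 2 lower genes are again Cacybp and Chordc1. The higher one was Serpinh1, a collagen chaperone, with a log2 difference of 3.37 (adjusted p = 0.0317, edgeR). In both libraries numbered 2, 4 of the 14 cochaperones and 7 of the 13 targets lay below every other library, against 10.4% of all genes. Ahsa1, Cacybp and Chordc1 are counted in both lists. In each of these lists 1 gene lay above every other library, against 11.6%. The 7 HSP70 cofactors, 10 CCT partners and prefoldin subunits, 21 genes of folding and stress signalling in the endoplasmic reticulum and 11 mitochondrial quality-control genes held 0 calls in this comparison.

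Early-response genes that tissue dissociation is known to induce moved in the same direction in part. Of 16 tested, 2 were lower in the libraries numbered 2, Fos (log2 difference -0.74, adjusted p = 0.0184, edgeR) and Jun (log2 difference -0.82, adjusted p = 0.0313), and the median was -0.25. Over all tested genes the shares called were 0.621% lower and 2.81% higher. Of the 16, 11 had negative differences. In both libraries numbered 2, 4 of them lay below every other library and 1 lay above, against 10.4% and 11.6% of all genes. Any part of tissue dissociation in the chaperone result was not tested. Markers of several other cell types were higher. In the libraries numbered 2, 8 of 9 epithelial markers were higher (median log2 difference 5.58), as were 4 of 8 myeloid, 3 of 5 B cell, 2 of 5 plasma cell and 1 of 4 fibroblast markers, and 0 of 7 T cell markers. Mast cell and red cell markers had 0 of 2 called each, endothelial Pecam1 had a log2 difference of -0.11 and Cd8b1 of CD8 T cells one of -0.46, both uncalled, and neutrophil markers were too low to test. The sums were 48.9 and 83.9 CPM against 13.4 to 22.2 CPM for myeloid cells, 44.5 and 34.1 against 14.0 to 22.8 for B cells, 1805 and 1291 against 647 to 723 for plasma cells, and 41.7 and 93.3 against 8.85 to 12.3 for fibroblasts. Of the epithelial markers, 2 were at 0 in Treg replicate 2, 2 in reporter-null replicate 1 and 1 in reporter-null replicate 3, and none in the libraries numbered 2. Of the pair, reporter-null replicate 2 had the higher epithelial, myeloid, fibroblast and stress-inducible sums, and Treg replicate 1 had the higher B cell and plasma cell sums. The part of these cells in the chaperone result was not tested. The 16 tested proliferation genes held 0 calls, with a median of -0.25 and 12 negative differences. Of these, 7 were lower in both libraries numbered 2 than in any other library, against 10.4% of all genes. Another 1 was higher in both, against 11.6%.

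The 14 genes were lower in the library numbered 2 inside each group. They were chosen by a fit of these same libraries, so fits of fewer of them are not separate evidence. Between the Treg libraries 1 library is compared with 1, and the spread then comes from the reporter-null libraries. Without reporter-null replicate 2, where the number is compared between the Treg libraries alone, all 14 genes were called again, together with Dnaja4, among 336 of 13589 genes. Without either Treg library, where it is compared within the reporter-null libraries, 13 of the 14 were called and Dnajb4 was not (log2 difference -0.57), among 1685 of 15054 genes called without Treg replicate 1 and 1692 of 15018 without Treg replicate 2. Without reporter-null replicate 3, 10 were called, and Hspa8, Dnaja1, Hsph1 and Dnajb4 were not, among 193 of 13867 genes. When the group was left out as a term, none of the 14 passed (smallest adjusted p = 0.107 in edgeR, with 16 members at an unadjusted p under 0.05), although all 14 differences stayed negative. The difference by number itself differed between the groups for 3 members, Hsph1, Dnaja4 and Dnajc6 (3.7%), against 2.69% of all genes, in a test with 1 residual degree of freedom.

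**Figure D4:**
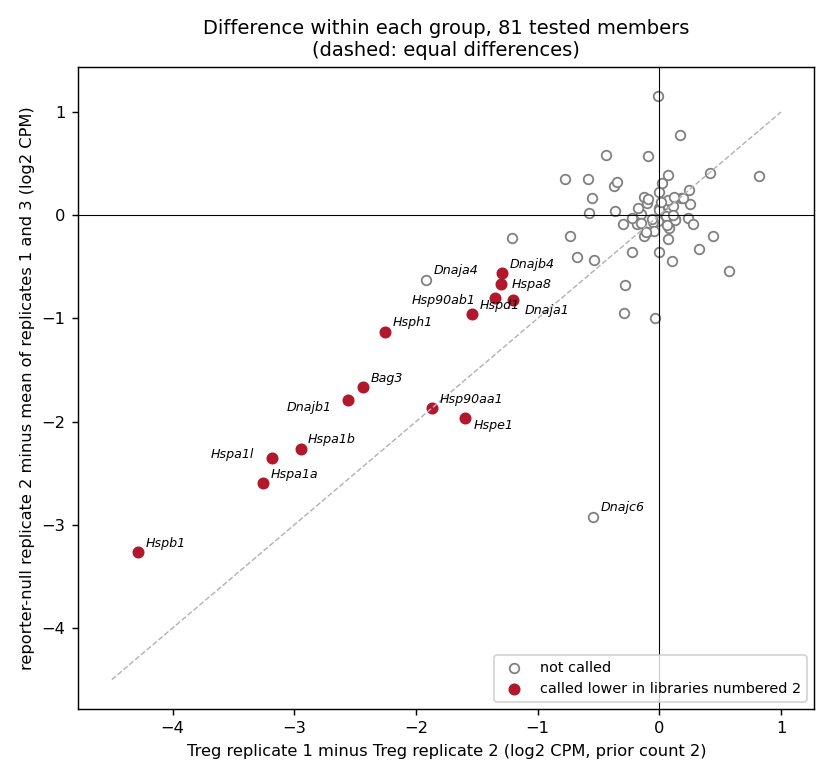
Log2 CPM difference between Treg replicates 1 and 2 (x axis) against that between reporter-null replicate 2 and the mean of replicates 1 and 3 (y axis) for the 81 tested members; filled points are the 14 genes lower in the libraries numbered 2 and the dashed line marks equal differences. The filled points lie at the lower left, 1 of them near the line and 1 below it (Hsp90aa1 and Hspe1) and the other 12 above it, and Dnajc6 lies low only on the y axis (-2.92 against -0.54).

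Between the groups, few chaperone genes were called. The spread between libraries was wide in this fit (common coefficient of variation 0.401), so an uncalled gene is not shown to be unchanged. With all 5 libraries, 3 of the 81 tested members were lower in reporter-null than in Treg cells (3.7%) and 0 were higher in edgeR, against 4.72% of all tested genes lower and 8.79% called in either direction. The median log2 difference of the members, reporter-null minus Treg, was -0.08, and that of all genes 0.02. Dnajc12, a J protein that stabilises aromatic amino acid hydroxylases, stood at 18.3 and 16.3 CPM in Treg and at 1.79, 3.79 and 2.63 CPM in reporter-null libraries (log2 difference -2.66, SE 0.342, adjusted p = 0.00543). Hsf2bp, which binds HSF2 and is known for its role in meiosis, stood at 4.29 and 3.19 CPM in Treg and at 0.325, 0.720 and 0.801 CPM in reporter-null libraries (log2 difference -2.59, SE 0.568, adjusted p = 0.0379). Dnajb9, a J protein of the endoplasmic reticulum that holds the stress sensor IRE1 in check, stood at 62.7 and 53.2 CPM in Treg and at 37.5, 38.4 and 41.0 CPM in reporter-null libraries (log2 difference -0.57, SE 0.124, adjusted p = 0.0360). The groups did not overlap for any of the 3 genes, as was so for 29 of the 81 tested members (35.8%) and 40.8% of all genes. None of the 3 was called without Treg replicate 1 or without Treg replicate 2, and Dnajc12 alone was called without reporter-null replicate 1 or replicate 3, all with the same direction.

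With all 5 libraries and no other term, the stress-inducible genes were not called between the groups, and each group held both high and low libraries. Hspa1a had a log2 difference of 0.31 with an SE of 1.35 (adjusted p = 0.931, edgeR). Leaving out Treg replicate 2 turned it to 2.72 and other settings reached -0.54, so its direction was set by which libraries were kept. Hspb1 had a log2 difference of -2.75 with an SE of 1.67 (adjusted p = 0.456). With the number as a term, 7 members were called (8.64%), against 13.7% of all genes. They were Dnajc12, Hsf2bp and Dnajb9 again, and with them Hspb1 (-2.93, adjusted p = 9.1e-05), Dnajb4 (-0.81, adjusted p = 0.0162) and Bag3 (-0.66, adjusted p = 0.0425), all lower in reporter-null cells, and Hspa2, which was higher (0.70, adjusted p = 0.0112). Without that term Hspa2, a testis-enriched HSP70, had a log2 difference of 0.77 (adjusted p = 0.0865) and was called with DESeq2 and without reporter-null replicate 2. Hsp90b1 had a log2 difference of 0.38 (adjusted p = 0.0974). Among related genes, Fkbp5, an HSP90 cochaperone induced by glucocorticoids, was higher in reporter-null cells (log2 difference 0.89, adjusted p = 0.0130, edgeR). So were Hyou1, the HSP110 of the endoplasmic reticulum (0.83, adjusted p = 0.0238), and Atf6, a sensor of the unfolded protein response (0.73, adjusted p = 0.0223). Fkbp5 was the 1 call among 14 HSP90 cochaperones, and Hyou1 the 1 among 7 HSP70 cofactors. Hyou1 and Atf6 were the 2 calls among 21 genes of folding and stress signalling in the endoplasmic reticulum. That list ran from a log2 difference of -0.87 to 0.83, with a median of 0.09. Of all 14164 tested genes, 577 were called higher and 668 lower.

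With both libraries numbered 2 left out, 1 Treg library was compared with 2 reporter-null libraries, and the lone Treg library is assumed to vary like the others. Then 13 of 82 tested members were called (15.9%), 11 of them lower in reporter-null cells, against 15.2% and 8.52% of all genes. Hspb1 was 8.97-fold higher in Treg replicate 2 than the mean of reporter-null replicates 1 and 3. Dnajb1 (log2 difference -0.80, adjusted p = 0.00237), Bag3 (-0.97), Hsph1 (-0.91), Dnaja4 (-1.04), Dnajb4 (-1.10) and Hspd1 (-0.68) were also lower in the reporter-null libraries. Hspa1a (-0.07, adjusted p = 0.922), Hspa1b (-0.10) and Hsp90aa1 (-0.03) did not pass. The list of called members was thus another one than with all 5 libraries, with 2 genes in common, Dnajc12 and Hsf2bp. A difference between 1 library and 2 cannot be told apart from a difference of that library.

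**Figure D5:**
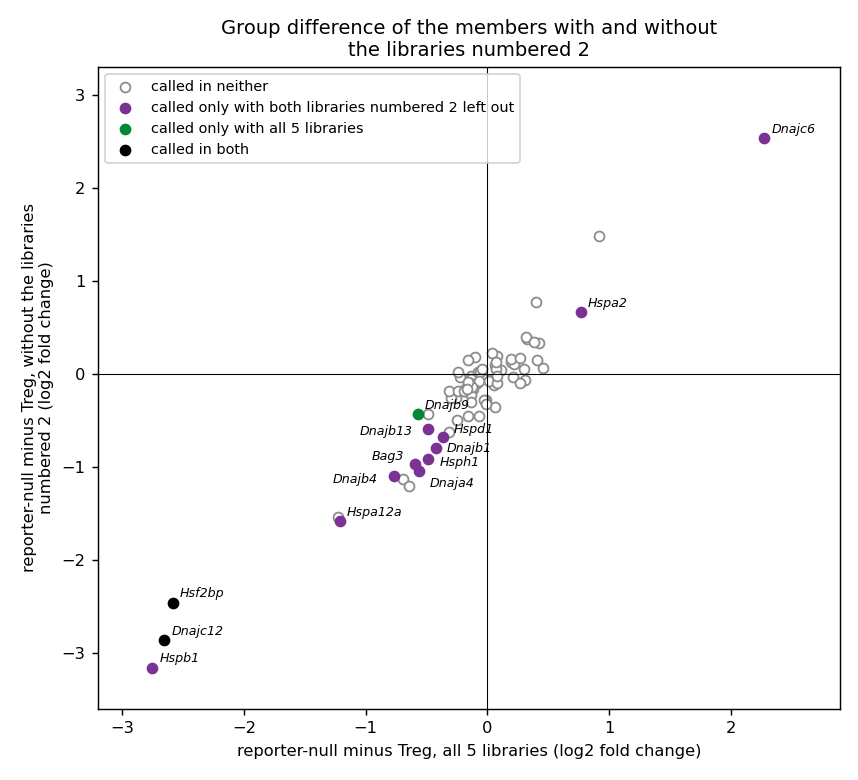
Log2 fold change of reporter-null against Treg cells for the tested members, with all 5 libraries (x axis) and with both libraries numbered 2 left out (y axis); colours give the fit in which a gene passed an adjusted p of 0.05. Dnajc12 and Hsf2bp passed in both, Dnajb9 passed with all 5 libraries alone, and 11 genes, among them Hspb1 and Dnajc6, passed with the libraries numbered 2 left out alone.

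The 12 members that were not tested held few counts. Hspb3 and Dnajc5g had no count in any library. Cct8l1, Dnajb8, Hspb2, Hspb7 and Hspb8 had 1 to 10 counts over all libraries. Dnajb3, Dnajb7, Hspa12b and Hspb9 had 25 to 39, and Dnajc22 had 82.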

How the data were processed

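RNA was measured in 5 libraries of colon lamina propria cells, 2 Treg and 3 reporter-null, grouped by the sample titles. Per the labels' protocols, polyadenylated RNA was amplified with SMART-Seq v4 and read in pairs of 50 bases. The authors deposited 1 table of raw counts, in whole numbers per gene symbol and not normalised. The submitters' processing notes name DESeq. Aligner, genome build, strand setting and the handling of multiply matching reads were not given in the sources used here. Reads carry no molecular identifiers, so a count is a read and not a molecule.

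Of 24421 rows, 4 carried no gene name (under 0.005% of any library) and were left out. No pair of libraries agreed within sampling noise in a chi-square test of counts. In R 4.3.3, counts passing filterByExpr (minimum count 10, minimum total 15) were scaled by TMM and tested with the robust quasi-likelihood F test of edgeR 4.0.16. Adjusted p-values are Benjamini-Hochberg values over all 14164 tested genes, called under 0.05, and the SE is the absolute log2 difference over the root of F. The group comparison had no other term (3 residual degrees of freedom), the comparison by number had the group as a term (2) and their interaction leaves 1. Other settings tried were DESeq2 1.42.0, limma-voom (limma 3.58.1), factors by RLE or upper quartile, no filter, a filter of CPM above 1 in at least 2 libraries, each library left out, replicate blocks, no group term, and both libraries numbered 2 left out.

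The members and gene lists were chosen with earlier results of these data known. Members called in either comparison, the 6 with the widest range of log2 CPM, a fixed set of core chaperones and up to 4 genes with the smallest p per related list were named; other names describe a count and were chosen after their values were seen. Both comparisons, but not the interaction, were tested on simulated data for 14164 genes with 50 planted per size. For the comparison by number, 66% of genes planted at a log2 difference of 1 and 90% at 2 were recovered, with 10.3% of calls false. For the group comparison these were 84%, 94% and 7.84%. The simulated spread was the one left with the number as a term, and no difference by number was planted beside the group difference. In the real data the group fit had a wider spread (common coefficient of variation 0.401, against 0.192 for the number fit). The recovery in the real group comparison was thus not measured.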

Additional observations from a re-analysis of the deposited data

Results flagged for a closer look

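For 3 of the 81 tested members (3.7%) the difference by number itself differed between the groups in edgeR's quasi-likelihood test of the interaction. This share is near the 2.69% of all tested genes. Hsph1 fell by 2.25 on the log2 scale between the Treg libraries and by 1.13 within the reporter-null libraries, an interaction of 1.12 (SE 0.333, adjusted p = 0.0335). Dnaja4 fell by 1.92 in Treg and by 0.63 in reporter-null libraries, an interaction of 1.29 (SE 0.330, adjusted p = 0.00730). Dnajc6 went the other way, with a difference of -0.54 in Treg and -2.92 in reporter-null libraries, an interaction of -2.52 (SE 0.559, adjusted p = 0.000806). This test leaves 1 residual degree of freedom and rests on 1 Treg library per number. Its alternatives were chosen after seeing the data. Hsph1 was lost with no filter (adjusted p = 0.107), and Dnajc6 with DESeq2 (adjusted p = 0.593) and with limma-voom (adjusted p = 0.0523).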

How the results depend on the processing

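The 14 genes lower in the libraries numbered 2 kept a negative difference in all 12 alternatives. All 14 were called with RLE or upper quartile factors, DESeq2, limma-voom, no filter, and the CPM filter. With libraries left out, 10 to 16 members were called, 10 to 15 of them lower and 0 to 1 higher. No filter gave 1 higher member, Dnajc22. With no group term 0 members were called and 0 were lower, and the cause was not tested. For the group comparison, DESeq2 called 8 members, 3 higher and 5 lower, and leaving out a library gave 0 to 5 called, 0 to 3 lower and 0 to 2 higher, with the members' median from -0.143 to 0.0233. Leaving out both libraries numbered 2 gave 13 called, 11 lower and 2 higher. Over all genes, the group comparison called 1245 in edgeR, 2323 with DESeq2 and 341 to 2035 with a library left out, and the comparison by number called 486, 958 with no filter, 1 with no group term and 193 (without reporter-null replicate 3) to 1692 (without Treg replicate 2) with a library left out. Fits with a library left out have few residual degrees of freedom, and the lone library of a group is then assumed to vary like the others.

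The titles and the descriptions pair the libraries differently. Deviations from the group means correlated at -0.511 and -0.602 between same-numbered libraries of the titles, and at 0.602 and 0.481 between those of the descriptions. With 2 Treg libraries their deviations are exact opposites (correlation -1). The -0.602 and 0.602 are therefore the same value with its sign turned, and the contrast is fixed in part by construction. With 2 pairs and no label that names a shared source, the numbers are not taken as pairing. With a replicate block by title number, 0 members were called in the group comparison, 0 of them lower, and 24 genes in all. With a replicate block by description number, 4 members were called, 1 higher, among 1399 of 14164 genes called in all. Of the 3 genes called without a block, Dnajc12 was among these 4 members and Dnajb9 and Hsf2bp were not. Hspb1, Dnajb4 and Hspa2 were added. With a replicate block for numbered 2 or not, 7 members were called, 6 lower and 1 higher, among 1937 of 14164 genes.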

Other observations

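Dnajc22, an untested member named after its values were seen, had 74 of its 82 counts in reporter-null replicate 2, the library with the highest level of epithelial markers.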
